A study of Drosophila melanogaster with 12 samples.

Results

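The regions described here are the transcription units of the fly genome that hold only CR genes. CR followed by a number is the FlyBase name for an annotated gene that was entered without a coding sequence. A unit was taken as a member where each gene named on it starts with CR and a digit and where it lies on X, 2L, 2R, 3L or 3R, the 5 large chromosome arms. This gave 2227 of 15739 units, or 14.15% (95% exact interval 13.61 to 14.70), and left 13512 other units on the same arms. Of the members, 896 overlapped a unit of the opposite strand by at least 1 bp and 1331 did not.

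The study profiled RNA polymerase II by mNET-seq, which reads nascent RNA from immunoprecipitated polymerase, in S2 cells, a male Drosophila cell line. Its 12 libraries form 6 groups of 2: total Pol II or Pol II with serine 5 phosphorylated (Ser5p), each after control (GST), MSL1 or MOF RNAi. The series' design text gives 2 days of RNAi for the control and MSL1 and 4 days for MOF, without repeating it per library. MSL1 and MOF belong to the male-specific lethal (MSL) complex, which acts on the male X. The deposited file used here lists the study's transcription units on dm6 and holds a value for 0 of the 12 libraries. No effect of RNAi on any unit is therefore given, sequencing depth is unknown, and whether a given unit is transcribed in S2 cells was not measured here. The annotation is a census and not a sample, so no test was run. The intervals are those that hold for independent draws of units, and they do not measure the spread among units. Units that lie side by side need not be independent. Intervals that meet or do not meet are thus given as a description and not as a test.

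Long non-coding RNAs are transcripts without a long open reading frame, made by RNA polymerase II like messenger RNAs. Some are antisense to another gene, and an antisense gene can sit inside its partner, cross its start or cross its end. Others start close to the promoter of a gene on the other strand and are read away from it, which is called divergent transcription. Among the best known long non-coding RNAs of flies are roX1 and roX2, the RNAs of the MSL complex, which carry their own names and so are no members.

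The label "non-coding" was checked gene by gene against the RefSeq gene table of the same assembly. The members hold 2233 CR genes, of which 2229 were found there by locus tag, symbol or synonym. RefSeq classes 1606 of them as lncRNA (71.9%), 446 as antisense RNA (19.97%) and 168 as pseudogenes (7.52%), and it classes 1, CR43701, as a small non-coding RNA. The label goes against the table for 8 genes that are now protein-coding. One of them is CR44404, now IBIN, a 228 bp unit on 2R (17671068 to 17671295, plus strand) that lies 13 bp from P32. The others are CG43405, CG43428, CG43610, CG44198, CG44666, CG45207 and CG45273, which keep their number with a coding prefix. CR45459, CR45460, CR45368 and CR45557 were not found. Of 2217 matched members with 1 gene, 2180 (98.3%) have exactly the RefSeq start and end, so the table is no independent check of the units.

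The rule also leaves CR genes out. The 5 arms carry 2516 CR genes, and 283 of them share 249 units with a gene of another kind, so they are not described here. Chromosome 4 holds 27 CR-only units and Y holds 61, which the rule does not cover. Within the members, 2221 units hold 1 gene and 6 hold a pair. The pairs are CR44596 with CR44595, CR44398 with CR44397, CR43870 with CR43874, CR45672 with CR45442, CR45671 with CR45443, and CR46061 with CR46062. The plus strand carries 1145 members and the minus strand 1082.

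CR-only units were short. Their median length was 701 bp (interval 682 to 726), with quartiles at 470 and 1161 bp, and 69.8% were under 1000 bp. The other units had a median of 2134 bp (2089 to 2181), with 21.3% under 1000 bp, and the intervals of the medians do not meet. Other units with 1 gene, the closest match to the members, had a median of 1964 bp. Long members were rare, since 16 (0.719%) reached 10000 bp against 14.2% of the other units. These are genomic spans, with introns, and not transcript lengths.

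Members on an occupied opposite strand were the longer ones. Overlapping members had a median of 840.5 bp (794 to 891) and non-overlapping members one of 629 bp (601 to 652). The same order was present in the other units, at 2362 and 1985 bp. Among members, the antisense RNA class had a median of 970.5 bp, the pseudogene class 693 bp and the lncRNA class 648 bp. Within the lncRNA class the overlapping units measured 721 bp and the others 627 bp.

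**Figure D1:**
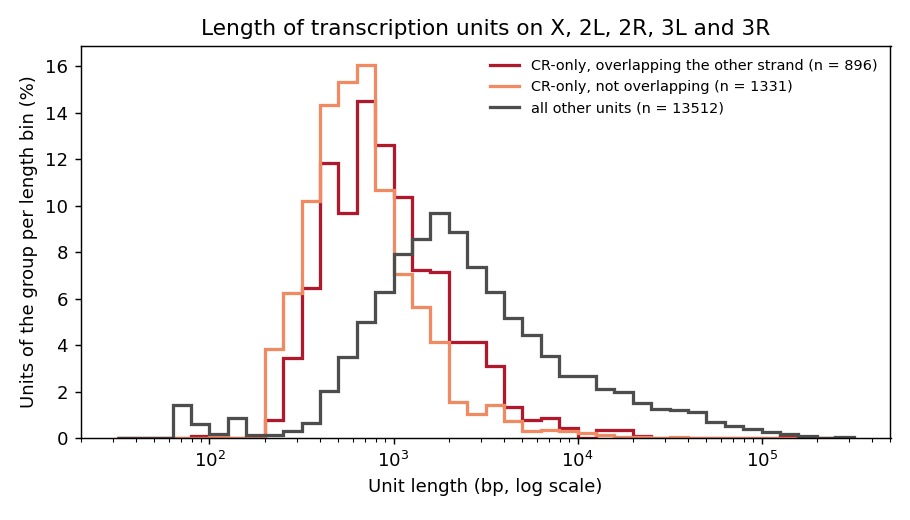
Length of transcription units in bp (x axis, log scale) against the percent of each group's units in a length bin (y axis), for the 896 overlapping and 1331 non-overlapping CR-only units and the 13512 other units. Both CR-only curves peak below 1000 bp and the overlapping one lies to the right, while the other units, with a median of 2134 bp, spread further to long spans.

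The longest member was CR44997, an lncRNA-class unit of 140359 bp on X (22657324 to 22797682, plus strand) with 1 transcript. It holds the whole of the opposite-strand unit CR44109, over 2139 bp. The next 2 by length among overlapping members were CR46003 at 21055 bp, which meets the unit of CR46004 and the microRNA mir-276b head to head over 1277 bp on 3L, and the pair CR43870 with CR43874 at 18409 bp, which holds CG6497. Among non-overlapping members the longest were CR31386 at 36194 bp on 3R, CR32111 at 20347 bp on 3L and the pair CR46061 with CR46062 at 17608 bp on 3R. The longest members thus fall in both subsets.

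At the short end, CR43701 measured 93 bp and lies inside stet, which encodes a rhomboid-family protease, on 3L (1488739 to 1488831). CR43240, a pseudogene of 102 bp on 2L, starts 94 bp from the divergent unit of CR43241, CG42748 and dunk. All other members were 200 bp or longer. The next shortest that overlap nothing were CR45368 and CR45515 at 200 bp, and the next shortest that overlap the other strand were CR45718 at 201 bp and CR44508 at 211 bp. Thus 2 members lay under 200 bp, and 129 more measured at least 200 but under 300 bp.

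Most members carried a single transcript. There was 1 transcript in 1961 members (88.1%, interval 86.6 to 89.4), against 54.4% of all 15739 units and 48.8% of the others. The mean was 1.14 transcripts in members and 2.35 in other units. Of other units with 1 gene, the closest match, 53.3% had 1 transcript and the mean was 2.03. Exactly 2 transcripts were listed for 227 members and 3 for 36. The subsets were close, with 85.6% of overlapping and 89.7% of non-overlapping members at 1 transcript, and their exact intervals (83.1 to 87.8 and 87.9 to 91.3) lie side by side without meeting.

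The members with the most transcripts were CR45139 and CR31781 with 6 each and CR46336 with 5. CR45139 is a 6329 bp antisense unit on 2R that crosses the start of uex, a CNNM-family gene, over 5997 bp. CR31781 is an 8955 bp unit on 2L that overlaps nothing and lies 25 bp from CG32832. CR46336, 2443 bp long, meets another CR-only unit, CR46337, tail to tail over 1692 bp. On 3L, 3R and X the most was 3 transcripts, in 8 members on each. The longest of these were CR45912 on 3L, the pair CR46061 with CR46062 on 3R, and CR45621 on X. Members with at least 2 transcripts numbered 266, had a median of 1306 bp against 662 bp for those with 1, and overlapped the other strand in 48.5% of cases against 39.1%.

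The share of members that overlapped an opposite-strand unit by at least 1 bp was close to the background. It was 40.2% (896 of 2227, interval 38.2 to 42.3), against 39.4% of all units and 39.2% of the others (38.4 to 40.1). With a minimum of 100 bp the shares were no longer close, at 38.08% of members and 27.05% of other units. RefSeq class divided the members sharply, since all 446 antisense-class units overlapped, as that name itself implies. In the lncRNA class 418 of 1600 units did (26.1%), and in the pseudogene class 30 of 168 (17.9%).

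The close shares at the 1 bp minimum hid unequal shares at a given length. Below 700 bp members and other units were alike, for example 31.2% and 29.6% from 500 bp to under 700 bp. From 700 bp to under 1000 bp the shares were 42.6% and 34.8%. At 1000 to 1999 bp 49.8% of 446 members overlapped against 39.5% of other units, and at 2000 to 4999 bp 63.8% of 177 members against 39.7%. In those 3 classes the exact intervals do not meet. At 5000 bp or more the 49 members stood at 57.1%, with a wide interval of 42.2 to 71.2 that takes in the 45.5% of other units.

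**Figure D2:**
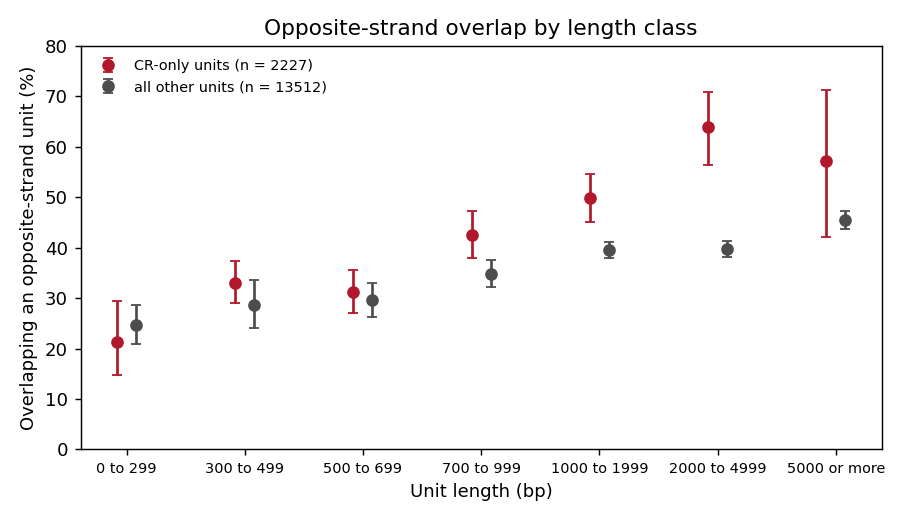
Share of units overlapping an opposite-strand unit (y axis, percent) by unit length in bp (x axis), for CR-only units (red) and all other units (grey), with exact 95% intervals as bars. The points lie together below 700 bp and part above it, reaching 63.8% against 39.7% at 2000 to 4999 bp.

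Where members overlapped the other strand, they mostly lay inside a longer unit. The 896 members formed 945 pairs with opposite-strand units, counted from the member. In 86 of these the partner is itself CR-only, so each such overlap enters from both sides. In 555 pairs (58.7%) the member lay wholly inside its partner. The partner was then long, with a median of 17464 bp against 771 bp for the member, and in 532 of the 555 pairs (95.9%) the host holds a protein-coding gene. The hosts are 486 distinct units, so some are counted more than once. Head-to-head overlaps, across both starts, made up 228 pairs (24.1%) with a median overlap of 478 bp. Tail-to-tail overlaps, across both ends, made up 102 pairs (10.8%) with a median of 321 bp, and in 60 pairs (6.35%) the member held its partner. Pairs among other units, counted from each side, were 50.6% tail to tail, 21.0% inside, 21.0% holding and 7.30% head to head. A nested pair among other units enters once as inside and once as holding, so these shares are equal by construction. The 58.7% of members and the 21.0% inside are therefore not like measures. The order of head-to-head and tail-to-tail pairs was thus the opposite of that among other units. These differences were not tested.

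**Figure D3:**
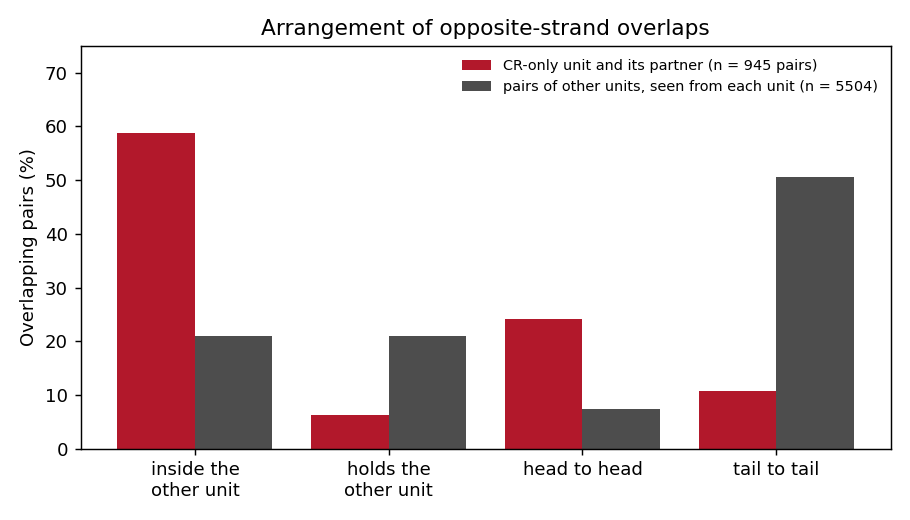
Percent of opposite-strand overlapping pairs (y axis) in each arrangement (x axis), for the 945 pairs seen from a CR-only unit (red) and for 5504 pairs among other units counted from each side (grey). Lying inside the partner leads for CR-only units at 58.7%, and tail-to-tail overlap leads among the other units at 50.6%. Each nested pair of other units enters once as inside and once as holding, so those bars are not like measures between the groups.

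Arrangement followed RefSeq class in part. Of members inside a host 300 were lncRNA-class and 240 antisense-class units, with 13 pseudogenes. Head-to-head pairs were mostly of the antisense class, 150 against 72 of the lncRNA class and 6 pseudogenes, and tail-to-tail pairs numbered 57, 34 and 11 in the same order. Both large classes therefore hold units nested in long genes, whether or not their symbol names them as antisense.

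Inside a host, member starts were spread over its length. The distance from member start to host start had a median of 6856 bp (quartiles 2236 and 21262), and 50 of 555 lay within 1000 bp. With each host cut into 5 equal stretches from its start to its end, these carried 99, 96, 110, 115 and 135 member starts. A nested member is read against its host, so it starts at its end farther from the host start. The distance thus takes in the member's own length, and the counts lean to later stretches in part by construction. Whether members avoid the host start was not tested. The longest nested member was CR44811, named bsAS in RefSeq, on 2R (24351477 to 24369689, minus strand). All its 18213 bp lie in the unit of bs, the fly serum response factor gene. CR45137 followed, with 15649 bp inside sca, which encodes a secreted glycoprotein of neural patterning, and then CR45224, with 14499 bp of overlap with SKIP. CR43653, named Irar, lies with its 2503 bp inside the unit of InR, the insulin receptor gene.

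Several other members have a name of their own in RefSeq, and these were picked after their values were seen. CR43283 is cherub, an RNA known from the asymmetric division of fly neuroblasts, with 8493 bp, 3 transcripts and 768 bp to CG5214 on 3R. CR43432, named marge, is 1006 bp long with 2 transcripts and lies 585 bp from Ocho on 3L. CR45923, named dntRL, is 1364 bp long with 2 transcripts and lies 284 bp from CG17486 on 2R. These 3 overlap no unit of the other strand, and each has more than the single transcript of most members. The named members bsAS and Irar, described above, differ in both respects, since each lies inside a host and has 1 transcript.

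Few partners met more than 1 member. The pairs involve 862 distinct partner units, 795 of them with 1 member, 54 with 2 and 13 with 3 or more. The units of Myo81F, CG32085 and kis, a chromatin remodeller gene, met 4 members each. Those with 3 were the units of beat-Ib, CG42750 with Ptp36E, CG1688, CG34354, CTPsyn, E2f1, Scr, klar, so and mbl. From the members' side 853 had 1 partner, 39 had 2 and 4 had 3 or more. In all, 807 overlapping members (90.1%) met a unit with a protein-coding gene, and 75 met other CR-only units and nothing else.

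Starts close to a divergent start were less frequent in members than in other units. A divergent start here is one on the opposite strand, read away from the member's start and at most 1000 bp from it. It was present for 408 members (18.3%, interval 16.73 to 19.99), against 33.3% of all units and 35.8% of the others (35.0 to 36.6). Overlapping members had one in 124 cases (13.8%) and non-overlapping members in 284 (21.3%). The lowest share was in overlapping lncRNA-class units, at 5.98%, while non-overlapping ones of that class stood at 21.9%. The split into subsets bears on these shares, because the start of an overlapping partner never counts as divergent here. Of the 418 overlapping lncRNA-class units 300 lie inside a host, whose span takes up the other strand around their start. The split and the measure are therefore not independent. The same split of the other units gave 34.9% of overlapping and 36.4% of non-overlapping units. How much of the difference among members is built in was not tested. The lower share of all members than of other units was present at each length from 300 bp up, for example 22.6% against 43.1% at 2000 to 4999 bp. At 5000 bp or more, with 22.5% against 31.2%, the exact intervals overlap. Below 300 bp the order was turned, at 19.9% in members and 16.7% in other units, with intervals that overlap as well.

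Where members had a divergent partner, the distances were much like those of other units. The median distance was 330.5 bp for members and 302 bp for other units, and 29.2% and 29.1% of those called were at most 200 bp apart. The partner held a protein-coding gene in 317 of 408 cases (77.7%) and was itself CR-only in 79 (19.4%). Counting head-to-head overlaps as well, 601 members (27.0%) had a start paired with one of the other strand, against 39.7% of other units, so the order of the groups stayed.

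**Figure D4:**
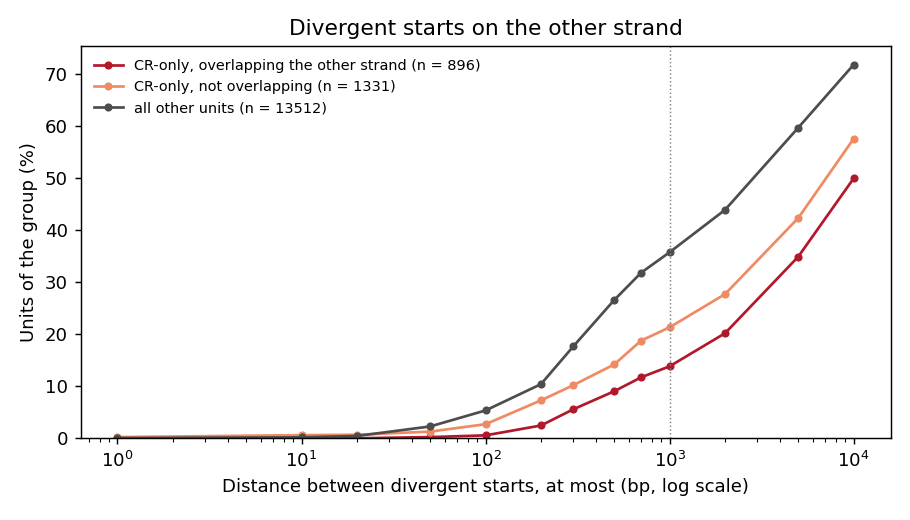
Percent of units (y axis) with a divergent start on the opposite strand at or within a given distance in bp (x axis, log scale), for overlapping and non-overlapping CR-only units and all other units; the dotted line marks 1000 bp. At that line they stand at 13.8%, 21.3% and 35.8%.

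The closest divergent starts lay a base apart. On 3L, CR45401 (125009 to 125420, minus strand) and CR45402 (125421 to 125833, plus strand) start on neighbouring bases, at a distance of 1 bp, and are of almost equal length at 412 and 413 bp. CR43983 on 2R starts 1 bp from CG43982. CR46040 on 3R starts 3 bp from the unit of CR43282 and hpRNA:1, a hairpin RNA gene. CR44198, one of the members now classed as coding, starts 6 bp from CG43050. Among members that also overlap something, the closest were CR44717 at 32 bp from CR44715, CR18166 at 36 bp from CG3176, CR45474 at 87 bp, CR46070 at 93 bp from CG6766, and CR45221 at 100 bp from CG3678. The first of these, CR44717, also holds CR44716, so its divergent and its overlapping neighbours are all CR-only.

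Members that overlap nothing stood far from their neighbours. The nearest unit, whatever its strand, lay at a median gap of 687 bp (interval 611 to 826, quartiles 206 and 2806), against 231 bp (224 to 234) for non-overlapping other units. Gaps of at most 100 bp were found for 11.3% of members and 26.5% of other units, and gaps over 5000 bp for 204 members (15.3%) and 5.04% of other units. By class the median was 803 bp for lncRNA-class and 202 bp for pseudogene-class members, and the interval of the latter (142 to 324) takes in the 231 bp of other units. The widest gaps were those of CR40100 at 112515 bp on 2R, CR41519 at 91723 bp on 2L and CR46253 at 64768 bp on 2L.

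Among units that overlap nothing on the other strand, the nearest neighbour was more often divergent for members and more often convergent for other units. It was divergent for 26.2% of non-overlapping members and 19.9% of non-overlapping other units, and convergent for 20.9% and 30.3%. The convergent gap had a median of 645.5 bp for members and 97 bp for other units. For 455 of the 1331 non-overlapping members (34.2%) the nearest unit was another CR-only unit, against 9.51% of non-overlapping other units.

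The X chromosome, the one that the MSL complex binds in males, held 306 members. This is 13.7% of members (interval 12.3 to 15.2), while X holds 15.5% of the other units and 15.2% of all units. Of the units on X 12.8% were CR-only (11.45 to 14.16), against 14.4% on the autosomal arms (13.81 to 15.01). Per Mb spanned by units, X held 13.2 members and the autosomal arms 17.8. X was also the arm with the fewest other units per Mb, at 90.3 against 105.9 on the autosomal arms together.

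Members on X were built like those elsewhere. Their median length was 718.5 bp (629 to 783) against 701 bp (681 to 722) on the autosomal arms, intervals that overlap. Other units on X were longer than autosomal ones, at 2581 bp (2429 to 2709) against 2054 bp (2006 to 2105). Overlap with the other strand was found for 38.9% of X members and 40.4% of autosomal ones, a divergent start for 18.0% and 18.4%, and a single transcript for 89.5% and 87.8%. Their gap was the shortest of the 5 arms, with a median of 525 bp (381 to 641) against 772 bp (640 to 900) on the autosomal arms together. These intervals just meet, and that of X overlaps those of 2R (599 bp, 456 to 1004) and 2L (616 bp, 487 to 941). The classes were unevenly placed: 26.8% of pseudogene-class members (45 of 168) lay on X, but 12.4% of the lncRNA class and 14.1% of the antisense class.

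In share of units, overlap and divergent starts X lay within the range of the autosomal arms. Arm 2L was the richest, with 582 members, 18.4% of its units and 24.9 per Mb, and its members overlapped the other strand least often, in 32.8% of cases (29.0 to 36.8). Arm 2R had the lowest share, 378 members or 11.7% of its units, and the most frequent divergent starts at 24.9% (20.6 to 29.5). Arm 3L held 487 members (15.6%) with the widest median gap, 1136 bp. Arm 3R held 474 (12.4%), of which 44.3% overlapped, close to the 44.7% of 2R.

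CR-only units near genes of the MSL complex were looked for in particular, because the study depleted that complex. Of all 13512 other units, 13.6% have a member overlapping them or within 1000 bp on either strand. This share, used below as well, is over units of all lengths and was not matched for the length of the listed units. All 7 genes of the complex have a unit, and 0 of them have a member that near. The nearest to mof, which encodes the acetyltransferase, was CR45668, a unit of 17510 bp at a distance of 5626 bp. For roX2 it was CR43217 at 5795 bp, for mle, the helicase gene, CR44127 at 7110 bp, and for msl-2, the gene of the male-specific subunit, CR45372 at 9252 bp. The nearest to the scaffold gene msl-1 was CR42490 at 16171 bp, to roX1 CR44118 at 54735 bp, and to msl-3 CR45832 at 84865 bp. These distances run from 5626 to 84865 bp. In the list of NSL complex genes, which share MOF with the MSL complex, 1 of 6 had a member near, CR45891 at 751 bp past the end of nsl1.

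Past roX2 lies a row of like units. A string of 7 CR-only units with nothing else between them begins 5795 bp past roX2, with nod, a kinesin-like gene, between them. It opens with CR43217, of 717 bp, and goes on with CR43216, CR43215, CR43214, CR43213, CR43212 and CR43211. These 6 are pseudogenes in RefSeq, each 1891 bp long and all on the plus strand. CR43216 starts 1055 bp after CR43217, and from there on each unit of 1891 bp starts 2093 bp after the one before. On the other side of roX2 the nearest member is CR44266, of 904 bp, on the minus strand. The last ends at 11599638, before rho-4, a rhomboid protease gene. Nothing was measured on them in S2 cells.

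**Figure D5:**
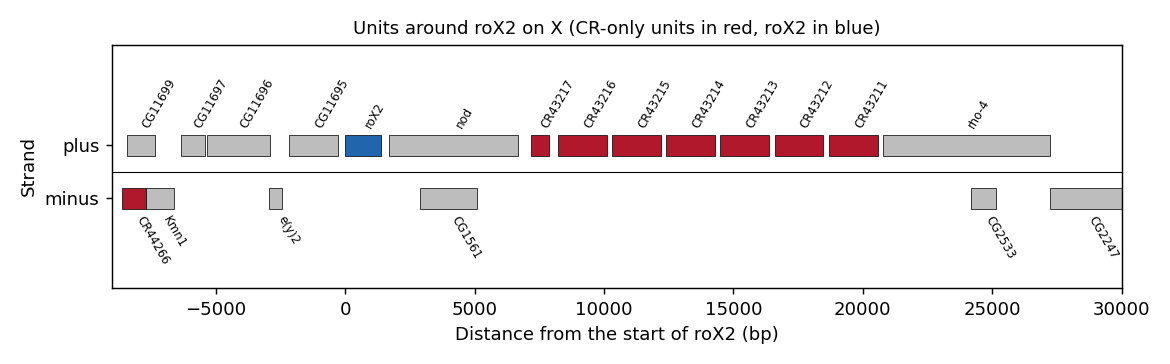
Units around roX2 on X, by distance in bp from the start of roX2 (x axis) and by strand (y axis), with CR-only units in red, roX2 in blue and other units in grey. CR43217 follows nod on the plus strand, and then come 6 units of 1891 bp whose starts are 2093 bp apart.

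Among the 8 Hox genes, the homeobox genes of body segment identity, 3 had members near, 5 members in all, beside 13.6% of other units. Unit length limits this comparison, since the unit of Scr, for example, spans 26862 bp against a median of 2134 bp for other units. CR45901 (885 bp), CR45904 (490 bp) and CR45905 (943 bp) lie one after another inside the unit of Scr on 3R. CR46267 lies with its 1864 bp inside Abd-B, and CR44932 lies 124 bp from the unit of Antp on the same strand. Each of the 4 nested members is of the lncRNA class, although it is wholly antisense to its host.

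Of 21 segmentation and patterning genes with a unit, 5 had members near, 7 members in all, beside the same 13.6%. The pair-rule gene run has CR45610, of 314 bp, divergent at 37 bp on X. The pair-rule gene eve has CR43948, of 2589 bp, head to head over 266 bp, and prd, another pair-rule gene, has CR44592 head to head over 179 bp, CR44593 divergent at 794 bp and CR44590 on its own strand. CR44912 starts 491 bp from dpp, a BMP ligand gene, on the other strand, and CR44281, of 800 bp, lies inside ptc, the Hedgehog receptor gene. In 4 of these 5 genes a member start faces away from the gene's start or crosses it, and ptc is the exception.

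Genes of pausing and early elongation had 1 case among 12, where CR44265 crosses the start of Nelf-A, a subunit gene of the pausing factor NELF, over 886 bp. Heat shock genes had members near in 6 of 12 cases through 5 members, and neighbouring heat shock genes share some of them. CR43481, of 2960 bp with 3 transcripts, starts 733 bp from Hsp26, a small heat shock gene, and crosses the start of Hsp67Ba over 1375 bp. CR43483 meets the end of Hsp27 over 49 bp, and CR43482 lies 417 bp past that gene. CR46154 and CR46155 are pseudogene units of 274 bp each, 120 bp past the copies Hsp70Bbb and Hsp70Bb and 542 bp before the copy that follows. The lists are short, were picked with results of these data known and were not tested against the 13.6% of other units.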

How the data were processed

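The authors deposited 1 list of transcription units on dm6 with positions in bp (1-based), strand, gene symbols and transcript IDs, and no measured signal. Per the file header it was written with rtracklayer 1.48.0. Per the submitters' processing notes, cutadapt 2.8, STAR 2.7.4a and SAMtools 1.20 were among the tools; the sources used here do not state how genes were merged into units. No coverage was analysed, so depth is unknown and no groups were compared. Gaps, overlaps, divergent starts and arrangements were computed from the positions in Python 3.11.15 with NumPy 2.4.6, pandas 2.3.3 and SciPy 1.17.1. The code was tested on simulated data, 600 intervals with 0 mismatches against a pairwise loop. Intervals are 95% exact binomial (Clopper-Pearson) for shares and binomial order statistics for medians. RefSeq classes come from its Release 6 gene table. The members and lists were chosen with earlier results of these data known. Named units are the extremes of length, transcripts, genes, overlap, gap and divergent distance (3 or 5 per rule), the leader in transcripts on each arm, members within 1000 bp of a listed gene, and their partners or neighbours. Genes renamed in RefSeq and hosts of 3 or more members were named after their values were seen. A planned motif search in promoters was not run, as no sequence was used here.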

Additional observations from a re-analysis of the deposited data

How the results depend on the processing

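Of 33 alternatives over 9 results, 23 kept a share or median within its interval or a count within 1.5 times its value. These include each alternative for the share with 1 transcript (other rules of membership) and for the length of either subset (100 bp of overlap). Several of the 23 could hardly move, since single-gene members are 2221 of 2227 units and 2 members lie under 200 bp. The ratio of members per Mb, given below, was set as moved because it is not a percent. The tally is therefore no measure of robustness. The share overlapping the other strand was 38.08% with at least 100 bp of overlap, against 27.05% of other units at that minimum, 33.68% with at least 50% of the member covered and 36.87% with partners that hold a gene other than a CR gene. The geometric mean length was 780.3 bp in place of the median. The median gap of non-overlapping members to units of the same strand was 2481 bp, against 679 bp for non-overlapping other units. To units that are not CR-only it was 1694 bp for these members. A divergent start was present for 12.12% at 500 bp, 24.70% at 2000 bp and 28.06% at 1000 bp with starts in either order, against 26.59%, 43.93% and 39.19% of other units. The ratio of members per Mb on X to the autosomal arms was 0.7413. The number of members ranged from 2047 with non-coding RNA classes only to 2476 with any unit that holds a CR gene. No paired analysis was possible because the file carries no value per library. Nothing here measures signal, so depth limits none of these values. The 283 CR genes that share a unit with another gene lie outside the rule.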

Other observations

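CR-only units came in strings along the chromosome. Reading units by start along an arm, 984 of 2227 members (44.2%) stood next to at least 1 other member, before or after. Members are 14.15% of all units. That value applies to 1 given neighbour, while a member on either side counts for the 44.2%, so the values are not like measures. There were 271 strings of 2, 76 of 3 and 4 of 7 units, the longest. In the string of 7 on 3L from CR44718 to CR44716 some neighbouring members overlap on opposite strands, for example CR44719, whose 319 bp end at the same base as CR44718. In windows of 1 Mb the number of members had a median of 16 and reached 38 on 2L between 15000001 and 16000000, where 124 units lie. These counts were not set against a random order.

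Equal lengths, as in the row of 6 units of 1891 bp past roX2, recur among neighbouring members. Counting next members on the same strand with exactly equal length and starts under 20000 bp apart, a rule chosen after seeing these units, there were 19 pairs, of which 15 lay on X, 2 on 2R, 2 on 3R and 0 on 2L and 3L. On X they include CR45495, CR45496, CR45497 and CR45498, of 629 bp each, and CR33487, CR46272 and CR46273, of 847 bp each. All but 1 of the X pairs are pseudogenes in RefSeq. A row of equal units enters this count as several pairs, as the row past roX2 does. On 2R the pairs are CR44639 with CR44640 and CR44646 with CR44647, whose starts and ends all have 95 as last digits. Such positions on 2R are described in the next paragraph. The same count is not given for other units.

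The positions of members on 2R had uneven last digits. Among 378 members there 102 starts (27.0%) and 112 ends (29.6%) end in 95, against 2.90% and 2.48% of other units on that arm. On 3R the digits 78 ended 32 of 474 starts (6.75%) and 38 ends (8.02%), against 0.929% and 1.59% of other units. On 2L, 3L and X the commonest pair of digits among members stood at 2.06% to 3.70%. In the same way 132 members (5.93%) have a length 1 bp above a multiple of 100 bp, against 0.910% of other units, and 85 of them lie on 2R. The cause was not tested, and lengths, gaps and overlaps of members on 2R carry these positions.

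Members also differed by the number in their name. Those numbered below CR42000 (127 units) had a median of 918 bp, lay on X in 22.8% of cases and were pseudogenes in 61.4%. Those from CR45000 to CR45999 (741 units) had a median of 636 bp and 1.75% pseudogenes. Overlap with the other strand was most frequent in the CR46 numbers, at 58.9% of 192 units, where 6.25% lay on X. The differences were not tested.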
